A study of Mus musculus with 11 samples.

Results

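The choroid plexus epithelial markers described here are 10 genes, Ttr, Otx2, Prlr, Kl, Clic6, Aqp1, Enpp2, Sostdc1, Slc4a5 and Tmem72, read out in RNA from whole mouse hippocampus. They were taken by name from the 38293 genes of the count tables, and all 10 were found and had enough reads to be tested. The mice were wild-type F1 offspring of a 129S6/SvEv and C57BL/6J cross, 14 weeks of age, of dams whose diet before mating held either 2.3 mg (control diet, CD) or 40 mg (folic acid-rich diet, FD) of folic acid per kg. The CD group comprised 3 males and 3 females and the FD group 2 males and 3 females, each mouse being 1 library. The labels do not give the litter of a mouse, so that p-values measure the spread between these mice. Before sequencing, the authors checked the hippocampal RNA by qPCR for Otx2 and Prlr as transcripts of the choroid plexus; whether any RNA was left out for its levels is not given in the sources used here.

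The choroid plexus is a frond of secretory epithelium in the brain ventricles that makes cerebrospinal fluid, and a sheet of it lies against the hippocampus. Its epithelial cells secrete transthyretin into the fluid, move water, chloride and bicarbonate, and carry folate from blood to brain through the folate receptor Folr1. Hippocampal tissue itself holds no choroid plexus, but strands of it can stay attached when the hippocampus is lifted out. Several of the markers are also made by other brain cells: Enpp2 is known from oligodendrocytes as well, and Kl from hippocampal neurons.

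Total counts ranged from 11737554 to 44447006 per mouse, with a median of 21148672. The reads behind a value therefore differ widely: Enpp2 had 2252 to 7323 reads per mouse, Ttr 44 to 822 and Kl 274 to 1012, whereas Otx2 had 1 to 32, Aqp1 3 to 16, Slc4a5 2 to 13 and Tmem72 0 to 12. A count of 0 allows a level of up to 0.0677 CPM (counts scaled to the size of the library) in the deepest library and up to 0.256 CPM in the shallowest. Intervals and limits of this kind cover counting error only. Hippocampal neuron genes were abundant in every mouse (the 10 genes of that list, Camk2a and Snap25 the highest, summed to 8508 to 9730 CPM). The sum was not set against other brain tissue, so it does not test the tissue label.

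Compared per kilobase of all annotated exons of a gene (FPKM, CPM divided by that length), the markers fell into a steep order. The length is not that of a single transcript, and it ran from 1186 bases for Ttr to 15339 for Prlr and 17177 for Tmem72. The order depends on it: by mean CPM, Kl (23.5) lay above Ttr (16.1), and Prlr (4.06) above Sostdc1 (2.87) and Clic6 (1.55). Enpp2, the secreted enzyme autotaxin, stood at 34.8 ± 4.26 FPKM (SD, n = 11) and Ttr, the thyroxine carrier transthyretin, at 13.6 ± 12.6 FPKM. Kl, the ageing-related co-receptor Klotho, followed at 2.52 ± 0.117 FPKM and Sostdc1, a secreted antagonist of BMP and Wnt signalling, at 1.61 ± 0.441 FPKM. Clic6, an intracellular chloride channel protein, had 0.396 ± 0.248 FPKM, Prlr, the prolactin receptor, 0.265 ± 0.0300 FPKM, and Otx2, the homeobox factor that maintains the epithelium, 0.152 ± 0.0849 FPKM. Aqp1, the water channel of its apical membrane, had 0.139 ± 0.0297 FPKM, Slc4a5, a sodium bicarbonate cotransporter, 0.0431 ± 0.0209 FPKM and the membrane protein Tmem72 0.00762 ± 0.00757 FPKM. Of neighbours in this order, the ranges over mice were separate only for Ttr above Kl. Within a mouse the order held in all 11 mice for Kl above Sostdc1, Sostdc1 above Clic6, Aqp1 above Slc4a5 and Slc4a5 above Tmem72, in 10 mice for Enpp2 above Ttr and for Prlr above Otx2, and in 7 mice for Clic6 above Prlr and for Otx2 above Aqp1.

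Ttr (ENSMUSG00000061808, chromosome 18) varied most in relation to its counting error. In the CD mice it was lowest at 5.72 CPM in female 2, had a median of 16.1 CPM and reached 54.7 CPM in female 3. The FD mice had 6.95 and 8.91 CPM in males 1 and 2, and 14.4, 3.35 and 11.8 CPM in females 1, 2 and 3. The CD and FD ranges overlapped, but all 5 FD mice lay below the CD median. From the lowest to the highest mouse Ttr differed 16.3-fold, and its counting error alone would give a coefficient of variation (CV) of 5.67% against the 93.2% observed. In bulk RNA of whole hippocampus, a lower level can mean fewer cells of a type or less RNA per cell, and these cannot be told apart.

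Otx2 (ENSMUSG00000021848, chromosome 14, 48657677 to 48673819, minus strand, GRCm38) had its largest gap between neighbouring values below the middle of its order, with 4 mice under it and 7 above. In CD mice it had 0.0853 CPM in female 2 and 0.339 CPM in male 3, and from 0.799 to 1.06 CPM in the other 4 mice. In FD mice it had 0.238 CPM in male 1 and 0.152 CPM in female 2, and 0.930, 0.848 and 0.828 CPM in female 1, male 2 and female 3. Thus 4 mice, 2 of each diet, lay at or under 0.339 CPM and the other 7 at or above 0.799 CPM, a gap that covered 47.3% of the whole range. The low values rest on 1 to 15 reads. For the single read of CD female 2 the exact 95% binomial interval (CPM not normalised) was 0.0022 to 0.475 CPM, which ends below the lowest of the 7 higher values. Those values have intervals of their own, and the ones of CD female 3 (0.414 to 1.40 CPM) and FD male 2 (0.449 to 1.52 CPM) overlap it. For CD male 3, the low mouse with 15 reads, the interval was 0.189 to 0.557 CPM. It overlaps these 2 intervals and also those of FD female 3 (from 0.501 CPM) and CD male 1 (from 0.543 CPM). The intervals therefore do not part the 4 mice from the 7. The same 4 mice had the lowest Ttr values, 3.35 to 7.38 CPM against 8.91 to 54.7 CPM in the other 7.

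**Figure D1:**
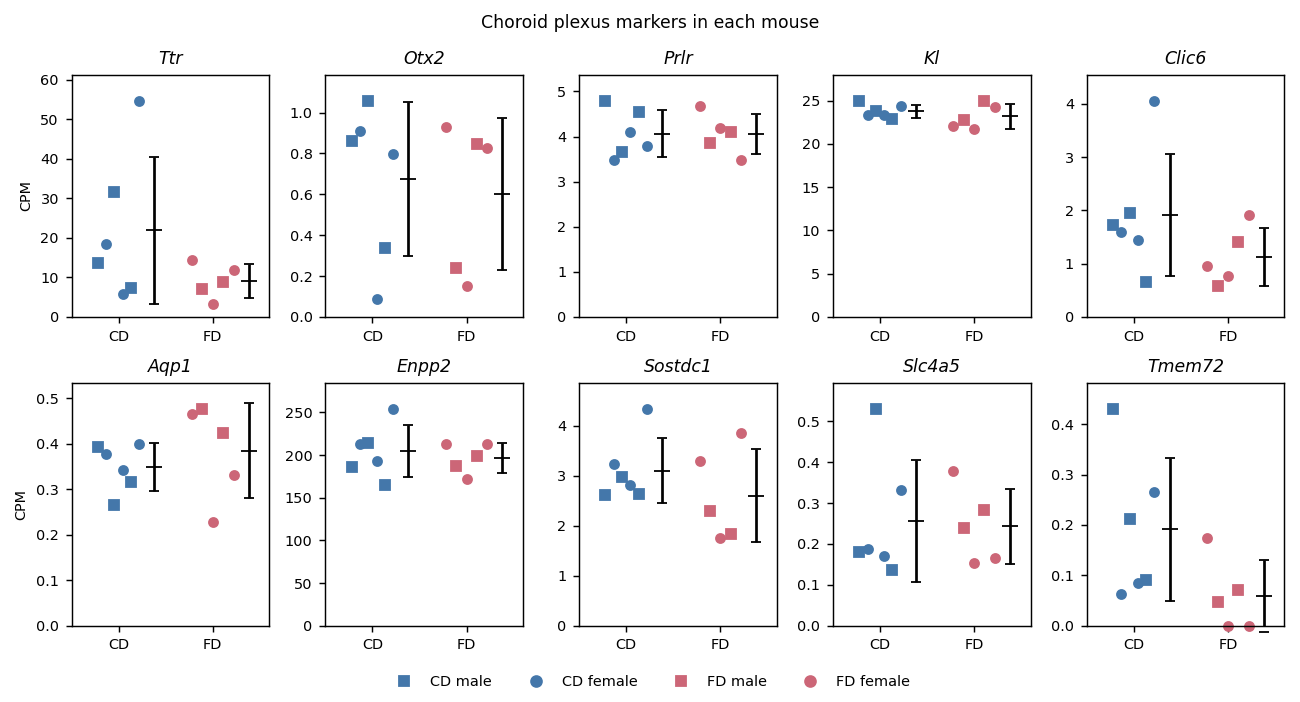
Normalised level (CPM) of each marker in each mouse, CD at the left and FD at the right of each panel, squares for males and circles for females, with mean ± SD in black; every axis starts at 0 and has its own scale. Ttr spans 3.35 to 54.7 CPM and the largest gap of Otx2 lies between 4 low and 7 higher mice, while Prlr and Kl stay within narrow bands.

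Prlr (ENSMUSG00000005268, chromosome 15, 10177238 to 10349180, plus strand) showed neither pattern. It ranged from 3.49 to 4.80 CPM with a median of 3.95 CPM in CD mice, and had 4.68, 3.86, 4.19, 4.10 and 3.48 CPM in FD female 1, male 1, female 2, male 2 and female 3. The 4 mice with low Otx2 had 3.86 to 4.54 CPM of Prlr, inside the 3.48 to 4.80 CPM of the other 7. Its CV of 11.3% was close to the 11.1% that counting alone would give. Kl was as even, at 21.8 to 25.0 CPM over all mice, with a CV of 4.63% against 4.66% from counting.

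Set against counting error, the markers thus separated into those whose spread between mice clearly exceeded it and those whose spread hardly did. Measured as the chi-square of the counts divided by its degrees of freedom, which is near 1 for counting error alone and had a median of 2.25 over the 20589 tested genes, the spread was 244 for Ttr, 69.0 for Enpp2 and 12.2 for Clic6. Otx2 (3.82), Sostdc1 (3.68) and Tmem72 (2.95) lay nearer to the median of all genes. Prlr (1.49), Slc4a5 (1.39), Kl (1.09) and Aqp1 (0.342) lay below it. Only 62 of the tested genes (0.301%) had a value as high as that of Ttr. The ratio grows with depth of reading, so the high value of Enpp2 goes with a CV of 12.2% and the low value of Aqp1 with 95 reads in all. Slc4a5 had a CV of 48.5% against 45.2% from counting, on 2 to 13 reads per mouse. For it an even level and a varying one cannot be told apart.

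**Figure D2:**
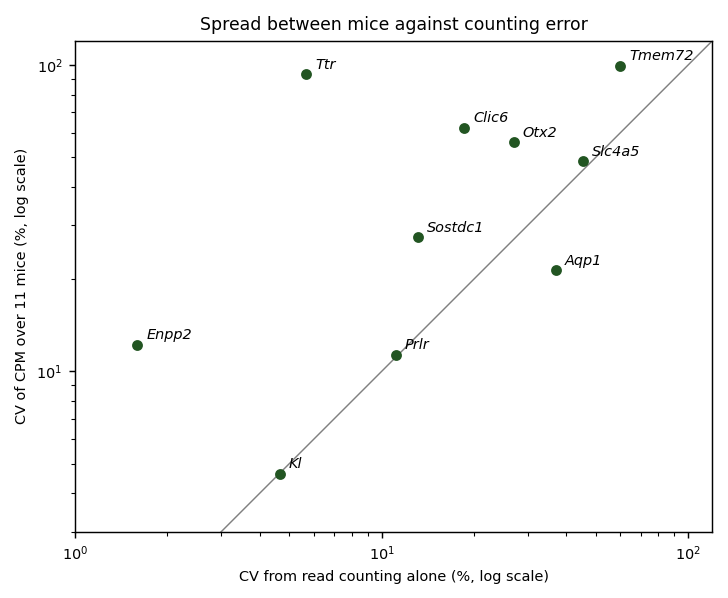
Coefficient of variation of CPM over the 11 mice (vertical axis, %, log scale) against the CV that read counting alone would give (horizontal axis, %, log scale), 1 point per marker; the line marks equality. Ttr (93.2% against 5.67%) lies farthest above the line, Prlr and Kl lie on it and Aqp1 lies below it.

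Enpp2 (chromosome 15, 54838901 to 54952892, minus strand) was at 165 to 254 CPM with a median of 204 CPM in CD mice. In FD mice it had 213, 187, 171, 199 and 213 CPM in female 1, male 1, female 2, male 2 and female 3. The FD range lay inside the CD range, and CD female 3 was again the highest mouse. Clic6 (chromosome 16, 92485736 to 92541243, plus strand) was at 0.655 to 4.06 CPM with a median of 1.66 CPM in CD mice, and at 0.959, 0.571, 0.761, 1.41 and 1.90 CPM in the FD mice in the same order. Its FD values overlapped the CD values, 4 of the 5 lying below the CD median. Sostdc1 (chromosome 12, 36314139 to 36318452, plus strand) was at 2.61 to 4.33 CPM with a median of 2.89 CPM in CD mice, and at 3.28, 2.28, 1.75, 1.84 and 3.85 CPM in the FD mice. Here 3 FD mice lay below every CD mouse and 2 FD mice above all CD mice but CD female 3.

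CD female 3 had the highest level of Ttr, Clic6, Enpp2 and Sostdc1, but ranked 7th of 11 for Otx2 and 8th for Prlr. In the same mouse the summed level of the 10 oligodendrocyte genes was the highest of all mice (6579 CPM, against 4077 to 5427 CPM in the others), and those of the 12 fibroblast genes (85.4 CPM against 125 to 317 CPM) and of the 5 haemoglobin genes (11.6 CPM against 23.2 to 55.3 CPM) were the lowest. The part of these other cell types in the marker levels was not tested. FD female 2 was at the other end, with the lowest level of Ttr, Kl, Aqp1 and Sostdc1 and no read of Tmem72.

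The question which markers go with Ttr rather than with Otx2 or Prlr was put as correlations of log2 CPM over mice, in a family of 24 pairs with 2-sided permutation p-values and Benjamini-Hochberg adjustment. With Ttr, 8 of 9 markers had a positive r, and 2 pairs passed an adjusted p of 0.05. One of the 8 was Otx2 (r = 0.123), whose value comes from only 7 mice, as explained below. The share of all genes with a positive r with Ttr is not given here, so the count of 8 is only a description. Enpp2 gave r = 0.846 (p = 0.0012, adjusted p = 0.0286, permutation test; Spearman's rho = 0.782, adjusted p = 0.118, n = 11). Clic6 gave r = 0.789 (p = 0.0040, adjusted p = 0.0475, permutation test; rho = 0.736, adjusted p = 0.118, n = 11). Sostdc1 (r = 0.743, adjusted p = 0.0731), Slc4a5 (r = 0.660, adjusted p = 0.160) and Tmem72 (r = 0.637, adjusted p = 0.167) did not pass the permutation test. Kl had r = 0.479, Aqp1 0.224 and Prlr -0.331, with adjusted permutation p-values of 0.411, 0.766 and 0.553. The spread of Kl, Aqp1 and Prlr between mice was close to counting error or below it, so their values could hardly show a relation. Slc4a5 has the same limit, with a CV of 48.5% against 45.2% from counting. Its r of 0.660 therefore cannot tell whether it goes with Ttr.

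These relations rested in part on the 2 mice at the ends of the Ttr range. Without CD female 3 and FD female 2, r with Ttr was 0.638 for Enpp2, 0.569 for Clic6, 0.632 for Slc4a5 and 0.415 for Sostdc1, and no pair of the 24 passed the exact permutation test. Leaving out CD female 3 alone gave 0.733 for Enpp2 and 0.634 for Clic6, with adjusted permutation p-values of 0.178 and 0.223. By rank, no pair passed.

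The relations of Otx2 were computed within the 7 mice above the largest gap of its values, a cut that the counting intervals do not part cleanly. There Ttr and Otx2 gave r = 0.123 (exact permutation p = 0.782, adjusted p = 0.816, rho = 0.179). These 7 mice leave out the 4 of lowest Ttr, so that the range of Ttr is cut short and the value cannot be set beside those over 11 mice. It hung on single mice, being 0.914 without CD female 3 and -0.392 without CD male 2. With the other 8 markers Otx2 had r from -0.533 (Aqp1) to 0.623 (Slc4a5), 2 of 8 positive, and none passed the exact permutation test. Of the 4 mice below the gap, the number that lay below all 7 others was 4 for Ttr, 3 for Clic6, 2 for Enpp2 and Slc4a5, 1 for Sostdc1, Kl and Aqp1, and 0 for Prlr, counts that were not tested. For Tmem72 this number could only be 0, since FD female 3, among the 7, had no read of it. Its median was 0.0665 CPM in the 4 mice and 0.174 CPM in the other 7. Prlr had r from -0.516 (Enpp2) to 0.417 (Tmem72) with the 7 markers other than Ttr and Otx2, and none passed the permutation test. With Enpp2 (rho = -0.700, adjusted p = 0.118), Clic6 and Sostdc1, the markers of highest r with Ttr, Prlr had negative values of r (-0.516, -0.398 and -0.352), which did not pass the permutation test. Since the CV of Prlr (11.3%) was close to that of counting alone (11.1%), its values of r cannot tell which markers go with it.

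**Figure D3:**
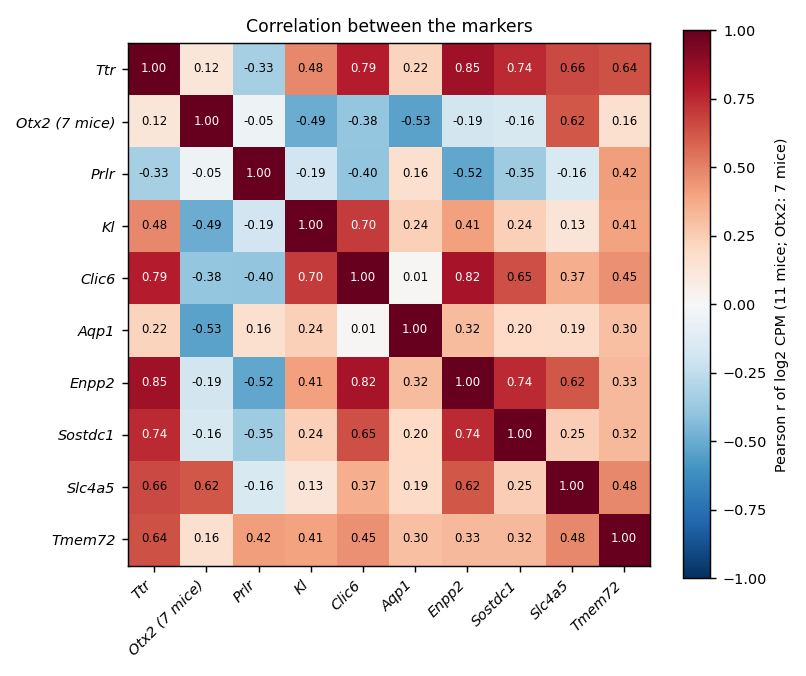
Pearson's r of log2 CPM between the 10 markers, from -1 (blue) to 1 (red), over 11 mice or, for pairs with Otx2, over the 7 mice of higher Otx2. All markers other than Otx2 and Prlr have positive values with each other, from 0.0143 (Clic6 with Aqp1) to 0.846 (Enpp2 with Ttr). The row of Prlr is mostly negative, but its spread between mice is close to counting error.

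Enpp2 went still more closely with oligodendrocyte genes. In a family of 27 pairs added after seeing the data, Enpp2 and the summed level of the 10 oligodendrocyte genes (among them Mbp, the myelin basic protein) gave r = 0.964 (p = 2e-05, adjusted p = 0.00054, permutation test; rho = 0.864, adjusted p = 0.0189, n = 11). Without the 2 mice farthest from the median of that sum, CD female 3 and CD male 3, r was 0.913 (adjusted p = 0.0225, exact permutation test). Sostdc1 (r = 0.777) and Clic6 (r = 0.751) had an adjusted permutation p of 0.0508 each with the same list. Ttr itself had r = 0.735 with it (adjusted p = 0.1004 in a family of 10 measures, permutation test), which was 0.367 without CD female 3 and FD female 2. Whether the relation of Enpp2 with Ttr differs from that with the oligodendrocyte list was not tested.

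Of the other measures, none passed the permutation test with Ttr in that family of 10. The values of r were 0.459 for the ependymal list (led by Foxj1 and Rarres2), -0.503 for the fibroblast list (led by Dcn and Slc13a3), -0.689 for the haemoglobin list (led by Hbb-bs and Hbb-bt) and 0.347 for the hippocampal neuron list. The endothelial list (led by Slc2a1 and Flt1) had -0.167 and the thalamus list (led by Prkcd and Plekhg1) 0.169. Total count had r = 0.138 and the share of reads outside annotated genes r = -0.318.

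The wider list of 28 further choroid plexus genes did not move as a unit with Ttr. Its summed level had r = -0.178 with Ttr, and its 5 genes of highest level were Igf2, Car12, Cab39l, Vat1l and Slc31a1, at means of 59.6, 49.9, 31.9, 25.3 and 24.2 CPM. The sum follows such high genes most, so its r does not stand for the 28 genes taken singly. Gene by gene, r with Ttr ran from -0.759 to 0.877 with a median of 0.405. In a family of 56 pairs added after seeing the data, 21 of the 28 genes had a positive r with Ttr, and 1 passed by Pearson's r and 3 by rank. The gene that passed both was Kcne2, a potassium channel subunit of the apical membrane, chosen here after its values were seen (r = 0.877, adjusted p = 0.0134, permutation test; rho = 0.834, adjusted p = 0.0282, n = 11). Its levels were 0.0677 to 0.732 CPM in CD mice and 0 to 0.145 CPM in FD mice, on 0 to 11 reads per mouse and 37 in all. Without CD female 3 and FD female 2 the relation had r = 0.685 and did not pass (adjusted p = 0.266, exact permutation test), nor did it without CD female 3 alone (adjusted p = 0.0894, permutation test). By rank, Calml4 (rho = 0.836, adjusted p = 0.0282, permutation test) went with Ttr and Car12, a carbonic anhydrase, against it (rho = -0.791, adjusted p = 0.0462, permutation test), with r of 0.712 and -0.759 that did not pass. Folr1, the folate carrier of the epithelium, had r = 0.606 (adjusted p = 0.202, permutation test), and 0.241 without CD female 3.

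Other genes of the wider list went with the fibroblast genes. Igf2, a growth factor of choroid plexus and leptomeninges, had r = 0.889 with the summed level of the 12 fibroblast genes (adjusted p = 0.0095, permutation test, n = 11) and -0.251 with Ttr. Slc13a4, a sulphate transporter, had r = 0.833 with it (adjusted p = 0.0160, permutation test, n = 11) and -0.123 with Ttr. Igf2 and Slc13a4 are known from leptomeningeal cells as well, and both were highest in FD male 2, the mouse with the highest fibroblast sum (317 CPM). Without that mouse and CD female 3, the 2 farthest from the median, r was 0.879 for Igf2 and 0.810 for Slc13a4, and neither passed (adjusted p = 0.152 and 0.159, exact permutation test).

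**Figure D4:**
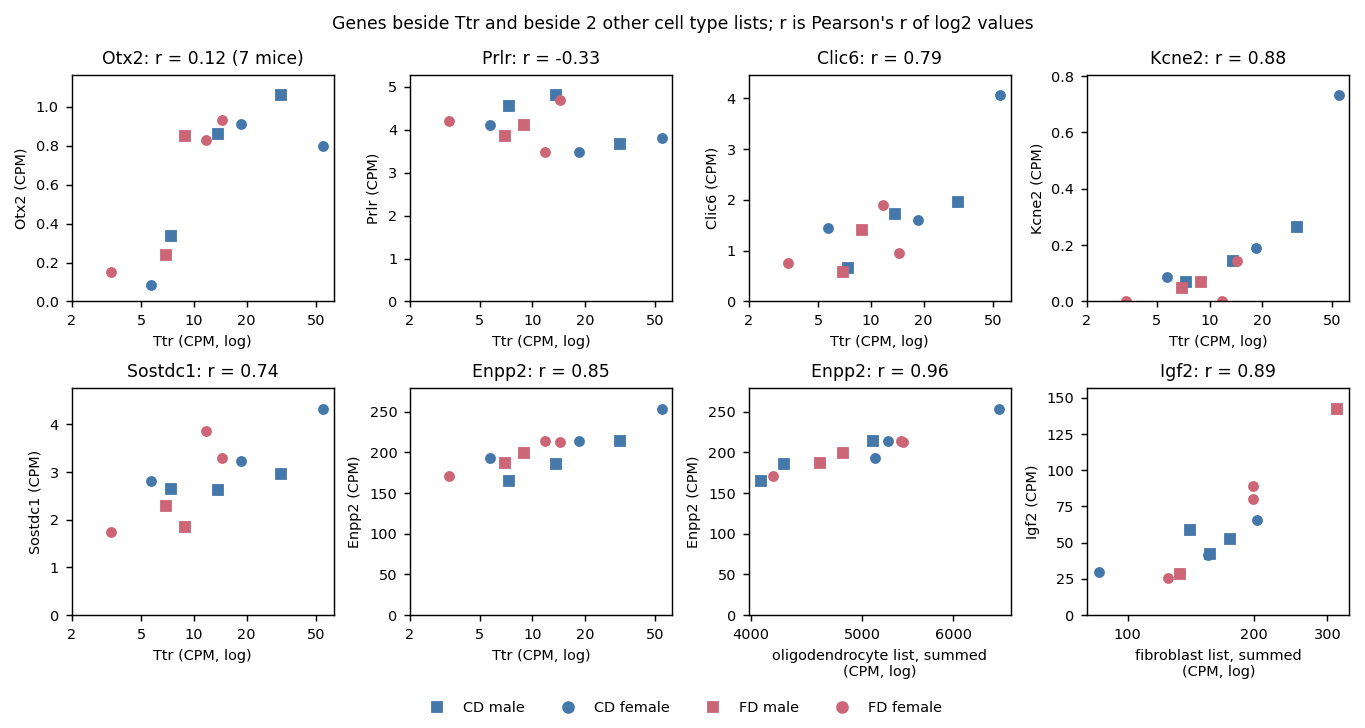
Level in each mouse (CPM, linear axis from 0) against Ttr (CPM, log axis) for 6 genes, and for Enpp2 against the summed oligodendrocyte genes and Igf2 against the summed fibroblast genes (CPM, log axes); colours are the diets and shapes the sexes. CD female 3 lies at the right end of the Ttr panels (54.7 CPM), Prlr is flat, and Enpp2 lies close to a line over the oligodendrocyte sum (r = 0.964).

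Among the 14437 genes that averaged 1 CPM or more, those most like Ttr over the 11 mice were Pcolce2 (r = 0.926), Mrpl21 (0.922), Gm11613 (0.922), Ybx3 (0.910) and Rps27l (0.901). Enpp2 came at rank 22, Clic6 at rank 91, Sostdc1 at rank 199, Kl at rank 2168 and Prlr at rank 10967. Most like Prlr were Tbc1d9 (r = 0.924), Oxr1 (0.883), Plcxd2 (0.881), Necab1 (0.856) and Etl4 (0.853), none of them a marker on any list used here. Over the 7 mice of higher Otx2, the genes most like Otx2 were Mzf1 (r = 0.973), Zfp526 (0.957), Tnfrsf19 (0.949), Plek (0.947) and Ddx23 (0.946). These values are descriptions, the highest of many. For Otx2 the counting intervals of the 7 mice overlap, and for Prlr the spread between mice was close to counting error.

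To ask whether the markers differed with maternal diet, FD mice were compared with CD mice by edgeR's quasi-likelihood test over all genes. None of the 10 markers passed the adjusted p threshold of 0.1, where 14 of 20589 genes (0.068%) did, all of them higher in FD mice. At an unadjusted p under 0.05 there was 1 marker, Ttr, and 534 genes in all; DESeq2 called none of the markers and 18 genes. For 8 of the 10 markers the FD mean was lower in the fit, and the median log2 fold change was -0.07 against -0.004 over all genes. The CD and FD ranges overlapped for every marker. These calls come from a fit that takes the mice as unpaired. In a fit with same-numbered mice as a block, described at the end, Ttr (log2 fold change -1.28) and Clic6 (-0.95) passed the threshold.

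Ttr averaged 21.9 ± 18.6 CPM in CD mice (SD, n = 6) and 9.07 ± 4.26 CPM in FD mice (SD, n = 5), a log2 fold change of -1.19 (SE 0.468; edgeR adjusted p = 1). Without CD female 3 it was -0.71 (SE 0.383; edgeR adjusted p = 1). Clic6 had -0.65 (SE 0.385), and -0.33 without CD female 3. Tmem72 had -1.27 (SE 0.71) on 0 to 12 reads per mouse, and from -2.50 without FD female 1 to -0.75 without CD male 1. Otx2, with 0.675 ± 0.378 CPM in CD mice and 0.599 ± 0.372 CPM in FD mice, had -0.09 (SE 0.426), and Prlr, with 4.06 ± 0.518 and 4.06 ± 0.442 CPM, had -0.01 (SE 0.117). The values were -0.17 for Sostdc1, -0.05 for Enpp2, -0.04 for Kl, 0.13 for Slc4a5 and 0.19 for Aqp1, each within 1 SE of 0.

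Of the wider list, 0 of 28 genes passed the diet comparison (edgeR), 15 being higher and 13 lower in FD mice, with a median log2 fold change of 0.02; 1 had an unadjusted p under 0.05, and DESeq2 called none. That gene was Kcne2 (-1.64, SE 0.758; edgeR adjusted p = 1). Folr1 had 0.855 CPM in CD and 0.584 CPM in FD mice on average (log2 fold change -0.41, SE 0.333), and the fold change was -0.15 without CD female 3 and -0.71 without FD female 3. All 12 fibroblast genes were higher in FD mice, none past the threshold (median 0.36), whereas 7 of 10 oligodendrocyte genes were lower (median -0.06), none past the threshold. The fibroblast sums overlapped, at 85.4 to 203 CPM in CD and 125 to 317 CPM in FD mice. Also higher in FD mice were 5 of 5 haemoglobin, 6 of 8 endothelial and 6 of 8 thalamus genes. Lower were 8 of 10 hippocampal neuron and 6 of 10 ependymal genes. None of these passed, and genes of a list can move together. The part of these cell types in the lower Ttr was not tested.

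Between the sexes, none of the 10 markers passed edgeR's test with diet as a covariate, where 1257 genes (6.11%) did. Sostdc1 came closest, with 2.47 ± 0.427 CPM in males (SD, n = 5) and 3.21 ± 0.889 CPM in females (SD, n = 6), a log2 fold change of male over female of -0.43 (SE 0.167; edgeR adjusted p = 0.155). It passed without CD female 2 (-0.49, edgeR adjusted p = 0.0774) and without FD female 2 (-0.49, edgeR adjusted p = 0.0467). In these 2 fits the calls rose over all genes, to 3244 of 20496 and 2762 of 20459, against 1257 of 20589 with all mice. The passing of Sostdc1 therefore cannot be read as particular to this gene. Clic6 had -0.66 (SE 0.349), Enpp2 -0.15 (SE 0.0804) and Ttr -0.57 (SE 0.431). Without CD female 3 these were -0.29, -0.081 and 0.0083. In the same fit all 10 ependymal and all 10 oligodendrocyte genes were lower in males, 1 of each list past the threshold. So were 5 of 5 haemoglobin and 8 of 10 hippocampal neuron genes. By contrast, 9 of 12 fibroblast and 6 of 8 endothelial genes were higher in males, and the thalamus genes went 4 each way. In these lists 1 fibroblast, 1 endothelial and 1 hippocampal neuron gene passed, each higher in males. The number of genes called between the sexes was itself unsteady, from 18 without CD male 1 to 3244 without CD female 2, so that the background share holds for this set of mice.

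Whether the diet difference itself differed between males and females was tested by the interaction term. It was called for 0 of the 10 markers and for 0 of 20589 genes (0%) by edgeR, 391 genes having an unadjusted p under 0.05 but none of the markers; DESeq2 called none and gave 119 genes with an unadjusted p under 0.05. For Ttr the difference between the sexes in the log2 fold change was 0.23 with an SE of 0.918, so that a difference of this size was not detectable with 2 to 3 mice per group.

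**Figure D5:**
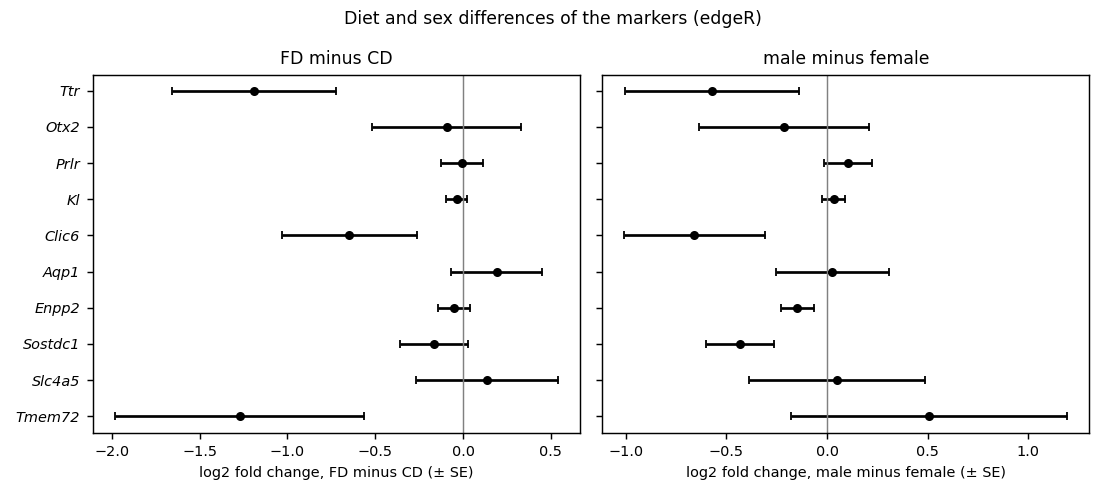
Log2 fold change ± SE of each marker from edgeR, FD minus CD at the left and male minus female at the right; the grey line marks no difference. Ttr (-1.19), Tmem72 (-1.27) and Clic6 (-0.65) lie left of the line for diet, and Sostdc1 (-0.43), Clic6 (-0.66) and Ttr (-0.57) for sex. None is past the adjusted threshold in these fits, which take the mice as unpaired.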

How the data were processed

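RNA from whole hippocampus of 11 mice was sequenced by the authors as 50-base single reads. Per the labels and the methods of the study, reads were trimmed, aligned to mm10 with STAR and uniquely aligned reads were assigned to genes; the study names featureCounts, while the summary lines of the tables have the form HTSeq writes. The annotation release is not given in the sources used here. The deposited files hold raw read counts per Ensembl gene, 1 mouse per file. Summary lines (24.4% to 26.9% of a file, 7.01% to 11.0% being reads in no gene) were left out.

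Of 38293 genes, 36429 matched a symbol in GENCODE vM21 (GRCm38, the build of mm10). The markers and lists were chosen with earlier results of these data known. Genes with at least 10 counts over all mice (20589) were tested with edgeR 4.0.16 (R 4.3.3; TMM, quasi-likelihood test, Benjamini-Hochberg over all tested genes, threshold 0.1). DESeq2 1.42.0 was an alternative. The fits were tested on simulated data. CPM was scaled by TMM, and FPKM used the summed exon length of GENCODE. Correlations used log2 CPM (prior count 2) with 100000 permutations, or all of them under 10 mice.

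Genes were named by a fixed rule: all 10 markers, Folr1, the 5 highest of the wider list, the 5 most like Ttr, Otx2 or Prlr, and the 2 highest of each other list. Kcne2, Calml4 and Slc13a4 fall outside it and were named after their values were seen. 1 gene that this rule names is not reported here. Annotated genes that overlap a marker (Gm21973 with Prlr, 2410124H12Rik with Clic6, Gm26684 with Enpp2) had at most 6 reads in a mouse. Within groups no pair of the 25 pairs of libraries agreed within sampling noise (chi-square over degrees of freedom 4.39 to 30.2).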

Additional observations from a re-analysis of the deposited data

Results flagged for a closer look

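Sostdc1 in CD female 3, at 4.33 CPM, stood apart from the other 5 CD mice: its gap to the next mouse took up more of the range of the group than Dixon's 95% critical value for 6 samples allows. It was the only value of its kind among the 20 tested (10 markers in each diet group), and chance gives about 1 in 20. The same mouse had the highest Ttr, Clic6 and Enpp2, whose values were not apart by this measure.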

How the results depend on the processing

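The labels number the mice within each sex, without saying what a shared number means. Deviations of the 5 same-numbered CD and FD pairs from the diet means correlated over genes at r from 0.376 to 0.616, but at -0.0322 to 0.473 after the means of the sexes were also removed, over 0.1 in 3 of 5 pairs, and 3 of 5 FD mice were most like their own number. This check does not settle whether such mice are pairs. Female pairs 2 and 3 kept r of 0.473 and 0.317, and with 2 FD males, removing their mean leaves deviations that are exact opposites. The mice were taken to share only a number, a decision made before the calls of the block were seen. Whether Ttr and Clic6 were called for diet depends on it. With the replicate block, which leaves out CD male 3, edgeR called 23 of 20212 genes and 2 markers for diet, Ttr (log2 fold change -1.28, SE 0.180, adjusted p = 0.0037) and Clic6 (-0.95, SE 0.187, adjusted p = 0.0663). Leaving out each pair, a check added after seeing the data, gave 11 to 21 genes (13 without female pair 3 or male pair 2) and 1 to 2 markers, Clic6 failing without female pair 2, female pair 3 or male pair 1. The 5 pair differences of Ttr in log2 CPM had a mean of -1.22 and an SE of 0.343, and an exact sign-flip test gave p = 0.0625, the smallest that 5 pairs allow. The block changed no other call among the markers.

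Without the block, the diet comparison called 1 gene with a filter of 10 counts in every mouse, 8 with edgeR's own filter, 2 in males alone and 1 in females alone, and 3 to 12 leaving out 1 mouse. The sex comparison called 2043 genes with DESeq2, 37 without the diet term and, with a filter of 1 count, 2645 genes and 4 markers; leaving out 1 mouse gave 18 to 3244 genes and 0 to 1 markers. The interaction called 10 genes with the filter of 1 count and 0 to 1 leaving out 1 mouse. The cause of these shifts was not tested. Pairs past the threshold with Ttr numbered 0 by Spearman's rho, 0 without the 2 farthest mice, 1 with a prior count of 0.5, 4 after sex and diet were removed, and 0 to 3 leaving out 1 mouse.

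Signs turned for markers near 0. For diet, the log2 fold change was -0.018 (Aqp1), 0.080 (Otx2) and 0.15 (Prlr) in females alone, and 0.058 (Enpp2) and 0.017 (Kl) in males alone. Prlr was 0.0017 and 0.0068 with the stricter filters, 0.049 with the block, 7.2e-05 with other size factors and 0.015 with sex as a covariate, and Slc4a5 was -0.010 with the block. Leaving out 1 mouse gave -0.11 to 0.019 for Enpp2, -0.35 to 0.12 for Otx2, -0.067 to 0.051 for Prlr and -0.16 to 0.46 for Slc4a5. For sex, Aqp1 was -0.015 without the diet term, and leaving out 1 mouse gave -0.078 to 0.11 for Aqp1, -0.43 to 0.055 for Otx2, -0.26 to 0.29 for Slc4a5, -0.10 to 1.06 for Tmem72 and -0.94 to 0.0083 for Ttr.

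Without the 2 farthest mice, r turned for Ttr with Aqp1 (-0.362), the wider list (0.194) and endothelial list (0.0219), and for Otx2 with Aqp1 (0.0094), Slc4a5 (-0.541) and Tmem72 (-0.159). By rank, Otx2 with Prlr was 0.143. After sex and diet were removed, Otx2 had 0.0810 with Sostdc1 and -0.0883 with Tmem72. Leaving out 1 mouse, r with Ttr was -0.392 to 0.914 for Otx2, -0.170 to 0.490 for Aqp1 and -0.0738 to 0.418 for total count. For Otx2 it was -0.228 to 0.323 with Prlr, -0.837 to 0.0584 with Clic6, -0.785 to 0.459 with Aqp1, -0.400 to 0.450 with Enpp2, -0.570 to 0.148 with Sostdc1 and -0.0938 to 0.391 with Tmem72. For Prlr it was -0.0105 to 0.3003 with Aqp1 and -0.387 to 0.0589 with Slc4a5. In all, 385 of 434 fold changes (Kcne2 and Folr1 included) and 491 of 534 correlations kept their sign and their side of the threshold. Most of them had not passed in the main fits, so keeping that side was likely from the start. The fits also share most of their mice, and these counts do not measure stability.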
